A study of Rattus norvegicus with 9 samples.

Results

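The genes described here are 10 markers of the endothelium that lines the liver sinusoids, chosen by symbol: Lyve1, Stab1, Stab2, Gpr182, Kdr, Flt1, Tek, Cdh5, Pecam1 and Vwf. The platform annotation used here names a probe set for 7 of the 10. Stab2, Kdr and Pecam1 were not analysed here. Those 7 were among the 18166 genes with a named probe set and among the 15793 tested, which are genes whose level exceeded the 25th percentile of all probe sets on at least 3 of the 9 arrays.

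The levels come from Affymetrix whole-transcript arrays of regenerating rat liver. The rats had been given retrorsine, an alkaloid of plants that stops most hepatocytes from dividing, and after partial hepatectomy the liver then regrows in part through clusters of small hepatocyte-like progenitors (SHPCs). All rats of all 3 groups were female F344 animals given 2 injections of retrorsine (30 mg/kg each) at an interval of 2 weeks, with partial hepatectomy 4 weeks after the second. The sources used here do not give their age. The transplanted SHPC group (arrays Thy1-1 to Thy1-3) holds SHPC clusters of livers that received sorted Thy1+ cells through the spleen, from DPPIV+ donors into DPPIV− recipients. The SHPC group (SHPC-1 to SHPC-3) holds clusters of livers without transplantation, and the hepatocyte group (Control-1 to Control-3) holds hepatocytes beside the clusters in livers without transplantation. One label, the description, calls the hepatocyte arrays transplanted SHPCs; their titles and cell type label call them control hepatocytes, and these were used. Regions were cut by laser from frozen sections 7 µm thick. The labels tie no array to an animal, so the p-values measure the spread between arrays, which may be technical, and 3 arrays a group limit the precision.

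Sinusoidal endothelial cells form a thin, fenestrated lining between the blood and the hepatocyte plates. They clear hyaluronan, modified proteins and other waste from blood through scavenger receptors, among them the products of Stab1 and Stab2, and they depend on vascular endothelial growth factor (VEGF) and angiopoietin signals, which they receive through Kdr, Flt1 and Tek. They also answer hepatocytes with growth and zonation signals of their own, such as HGF and Wnt proteins, which is why they are studied in liver regeneration. Because sinusoids run between the plates, a region cut from a section as hepatocytes or as an SHPC cluster can include them. In such bulk samples fewer endothelial cells and less RNA per cell cannot be told apart.

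Promoter windows were held for 4 of the 7 measured markers, and they are shown because these genes are read out together below. Each is the 250 bases before the gene's start, 5′ to 3′ in the direction of transcription, from RefSeq (build GRCr8). Capitals mark GGAAG or its reverse complement CTTCC, the core read by ETS factors such as Erg and Fli1, which are known regulators of endothelial genes.
Lyve1, chr1:174410978-174411227, minus strand: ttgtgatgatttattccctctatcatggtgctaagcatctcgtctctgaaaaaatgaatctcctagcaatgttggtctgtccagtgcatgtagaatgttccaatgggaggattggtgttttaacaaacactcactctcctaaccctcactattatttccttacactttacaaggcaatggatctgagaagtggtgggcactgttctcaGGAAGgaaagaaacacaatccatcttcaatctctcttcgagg
Gpr182, chr7:65474111-65474360, minus strand: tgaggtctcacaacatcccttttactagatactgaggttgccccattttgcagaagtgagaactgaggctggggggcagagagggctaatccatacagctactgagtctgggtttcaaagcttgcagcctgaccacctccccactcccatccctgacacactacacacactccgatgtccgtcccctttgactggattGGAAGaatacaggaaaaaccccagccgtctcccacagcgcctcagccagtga
Stab1, chr16:6367360-6367609, minus strand: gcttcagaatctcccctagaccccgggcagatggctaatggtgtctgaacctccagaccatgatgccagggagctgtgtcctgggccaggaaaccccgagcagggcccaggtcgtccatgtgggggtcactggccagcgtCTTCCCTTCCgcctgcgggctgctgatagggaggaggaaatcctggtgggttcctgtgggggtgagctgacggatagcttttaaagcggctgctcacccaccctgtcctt
Flt1, chr12:12333180-12333429, plus strand: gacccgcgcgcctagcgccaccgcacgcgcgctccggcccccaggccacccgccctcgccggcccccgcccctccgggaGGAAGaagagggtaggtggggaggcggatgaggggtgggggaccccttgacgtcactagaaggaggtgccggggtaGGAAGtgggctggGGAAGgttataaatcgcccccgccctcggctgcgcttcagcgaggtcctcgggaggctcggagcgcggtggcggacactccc
GGAAG, searched on both strands, occurred once in the Lyve1 and Gpr182 windows each, 2 times in Stab1 and 3 times in Flt1. The nearest match to the start lay 42 bases before it in Lyve1, 52 in Gpr182, 105 in Stab1 and 82 in Flt1. With Stab2 and Kdr, which were not measured, 6 of 6 marker windows held it, against 63.3% of all 33469 windows of that length. AGATAA, a form of the motif read by factors such as Gata4 and also searched on both strands, was in 0 of 6 marker windows and in 10.3% of all. Other forms of that motif were not searched, so the count does not cover them. A match describes the letters of a window and is not a binding site.

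All 7 markers lay above the median of all probe sets on each of the 9 arrays, the hepatocyte arrays included. So did the 8 measured hepatocyte markers and the 12 Kupffer cell markers. This is not a detection call: of 6 tested markers of T and natural killer cells, 3 or 4 also lay above it on each array. Stab1 on SHPC-2 had a linear intensity of 36.2, where the array median was 24.1. Alb, the gene of albumin and a marker of the labelled hepatocytic tissue, averaged 13.67 in transplanted SHPCs, 13.63 in SHPCs and 13.61 in hepatocytes (log2 intensity). It lay near the top of the scale, at 11929 to 13224 linear where the highest value of all was 14711. The 8 hepatocyte markers as a set were less level. Against hepatocytes they ran from −0.65 to 0.42 in transplanted SHPCs (log2 difference, 6 above 0) and from −0.64 to 0.68 in SHPCs (5 above 0). Of 8 named markers of T and natural killer cells, 5 lay above the 25th percentile on all 9 arrays, and 1, Cd3d, lay at or below it on all 9.

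Arrays SHPC-2 and Control-2 stood apart from the other 7. They had median linear intensities of 24.1 and 23.0, where the other arrays lay at 19.6 to 20.6, and their log2 values spread less, with SDs of 1.94 and 1.98 where the others had 2.09 to 2.13. Every result on the markers is therefore given with and without both arrays.

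Lyve1 encodes a hyaluronan receptor found on sinusoidal and lymphatic endothelium. Its log2 intensity was 8.10, 8.20 and 8.43 on the transplanted SHPC arrays, 8.16, 7.29 and 8.10 on the SHPC arrays, and 8.37, 7.54 and 8.04 on the hepatocyte arrays, in replicate order. The groups overlapped, and the lowest values were those of SHPC-2 and Control-2. Lyve1 averaged 8.24 ± 0.17 in transplanted SHPCs, 7.85 ± 0.49 in SHPCs and 7.99 ± 0.42 in hepatocytes (log2 intensity, SD, n = 3 each). SHPC-2 lay 0.84 below the mean of the other SHPC arrays, a 1.79-fold lower intensity, while those other arrays differed from each other by 0.05.

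Stab1 encodes stabilin-1, a scavenger receptor of sinusoidal endothelium and of some macrophages. Its values were 5.34, 5.45 and 5.32 on the transplanted SHPC arrays, 5.42, 5.18 and 5.45 on the SHPC arrays and 5.75, 5.65 and 5.45 on the hepatocyte arrays. Stab1 was lowest on SHPC-2 but was not low on Control-2, which lay 0.05 above the mean of the other hepatocyte arrays. The deposited Stab1 value was identical, at 43.8 on the linear scale, on 3 arrays, 1 of each group (Thy1-2, SHPC-3 and Control-3), and the Lyve1 value of Thy1-1 equalled that of SHPC-3 at 275. The sources used here do not say why. No other marker had a value shared by arrays.

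Gpr182 encodes a G protein-coupled receptor that binds and clears chemokines and is largely restricted to endothelium. It stood at 7.74, 7.98 and 7.93 on the transplanted SHPC arrays, 7.89, 7.28 and 7.74 on the SHPC arrays, and 7.93, 7.77 and 7.76 on the hepatocyte arrays. All values other than that of SHPC-2 lay within 7.74 to 7.98. Control-2, low for Lyve1, differed from the mean of the other hepatocyte arrays by only −0.07 for Gpr182.

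Flt1 encodes VEGF receptor 1, which also exists as a soluble form that traps VEGF. It measured 5.78, 5.72 and 5.92 on the transplanted SHPC arrays, 6.09, 5.52 and 5.79 on the SHPC arrays, and 6.0, 5.46 and 5.58 on the hepatocyte arrays. The group means lay within 5.68 to 5.81, and the 3 groups overlapped throughout. Tek encodes the angiopoietin receptor Tie2. It measured 5.73, 5.92 and 5.89 on the transplanted SHPC arrays, 5.79, 5.44 and 6.06 on the SHPC arrays, and 6.27, 5.54 and 5.96 on the hepatocyte arrays. Its lowest and second lowest values were again those of SHPC-2 and Control-2.

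Cdh5 encodes VE-cadherin, the adhesion molecule of endothelial junctions. Its values were 7.95, 8.12 and 8.05 on the transplanted SHPC arrays, 7.79, 7.05 and 7.67 on the SHPC arrays, and 8.0, 7.09 and 7.90 on the hepatocyte arrays. Every transplanted array lay above every SHPC array, and the transplanted arrays overlapped the hepatocyte arrays. Vwf encodes von Willebrand factor, a clotting protein stored by endothelium of larger vessels and weakly made by normal sinusoids. It stood at 5.68, 6.04 and 5.48 on the transplanted SHPC arrays, 5.54, 5.33 and 5.59 on the SHPC arrays, and 5.57, 5.11 and 5.16 on the hepatocyte arrays. Thy1-2 held the highest Vwf value, and Control-1 lay above Thy1-3.

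**Figure D1:**
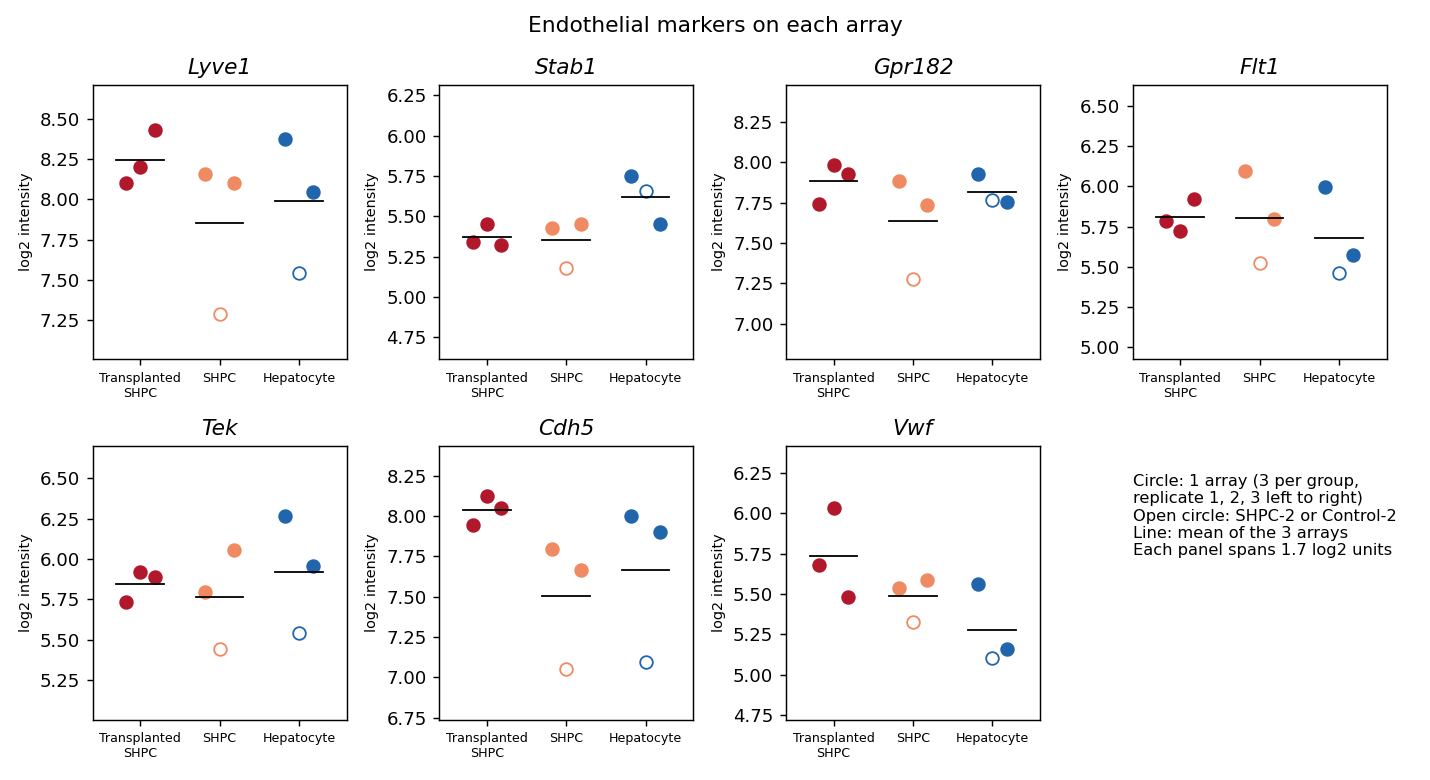
Log2 intensity (y axis) of the 7 measured endothelial markers on each array, by group (x axis), with the mean of 3 arrays as a line and SHPC-2 and Control-2 as open circles. The open circles are the lowest of their group for Lyve1, Flt1, Tek, Cdh5 and Vwf, while for Stab1 and Gpr182 Control-2 is not.

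Within the SHPC and hepatocyte groups most markers were low on the same array. SHPC-2 lay below both other SHPC arrays for 7 of 7 markers, where 45.8% of all tested genes did so, and Control-2 lay below both other hepatocyte arrays for 5 of 7, against 41.2% of all tested genes. The gap of SHPC-2 to the mean of the other SHPC arrays ran from −0.84 for Lyve1 to −0.24 for Vwf. For Control-2 it ran from −0.86 for Cdh5 to 0.05 for Stab1. Within groups the SD of a marker was 0.07 to 0.28 in transplanted SHPCs, 0.14 to 0.49 in SHPCs and 0.09 to 0.50 in hepatocytes.

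Setting transplanted SHPC clusters against SHPC clusters of livers without transplantation asks whether the donor cells went with a different endothelial content or state of the clusters. All 7 markers had a higher mean in transplanted SHPCs (after cyclic loess 6, since Flt1 turned), by a median of 0.25 on the log2 scale, against a median of 0.02 over all tested genes, of which 53% were above 0. That median was 0.05 after cyclic loess (all tested genes 0.02), 0.10 after quantile normalization (0.04) and 0.35 after median centring (0.12). None passed limma at an adjusted p under 0.05 (0 of 7 markers, with 0.00633% of all tested genes passing), and 0 of 7 had an unadjusted p under 0.05, against 7.35% of all. Without SHPC-2 and Control-2 the median was 0.07, and 4 of 7 were higher, against 51.6% of all tested genes. In that fit 0 of 7 passed, against 0.146% of all.

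Cdh5 showed the largest difference of the 7. It was 0.54 ± 0.26 (log2, SE), or 1.45-fold, higher in transplanted SHPCs (limma adjusted p = 0.697), with a 95% interval of −0.04 to 1.12. It was the 1 marker of 7 whose arrays did not overlap, a pattern that 15.8% of all tested genes had, 10.6% in that direction. Without SHPC-2 and Control-2 its difference was 0.31 ± 0.10 (SE, limma adjusted p = 0.33), with an unadjusted p = 0.0165. Lyve1 differed by 0.39 ± 0.27, Gpr182 by 0.25 ± 0.17 and Vwf by 0.25 ± 0.18 (log2, SE). Leaving out both arrays brought these to 0.11, 0.07 and 0.17.
Tek, Stab1 and Flt1 differed by 0.08 ± 0.21, 0.02 ± 0.14 and 0.01 ± 0.19 (SE), and without both arrays by −0.08, −0.07 and −0.13. The 95% interval of Lyve1 ran from −0.20 to 0.99 and that of Stab1 from −0.29 to 0.32.

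Markers of Kupffer cells, the resident macrophages of the liver, had means on the same side. All 12 were above 0 in transplanted SHPCs against SHPCs (11 after quantile normalization or cyclic loess), with a median of 0.59, and without SHPC-2 and Control-2 again 12 of 12, with a median of 0.28. Their summed linear intensity was 3145 to 3811 on transplanted arrays and 1649 to 2716 on SHPC arrays, while that of the 7 endothelial markers was 935.4 to 1058 on transplanted arrays and 610 to 957.3 on SHPC arrays. Stellate cell markers were above 0 in 10 of 12, with a median of 0.20, or 0.11 without both arrays, and sums of 1197 to 1409 on transplanted and 874.2 to 1193 on SHPC arrays. None of these markers passed in this comparison, and their part in the endothelial values was not tested.

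**Figure D2:**
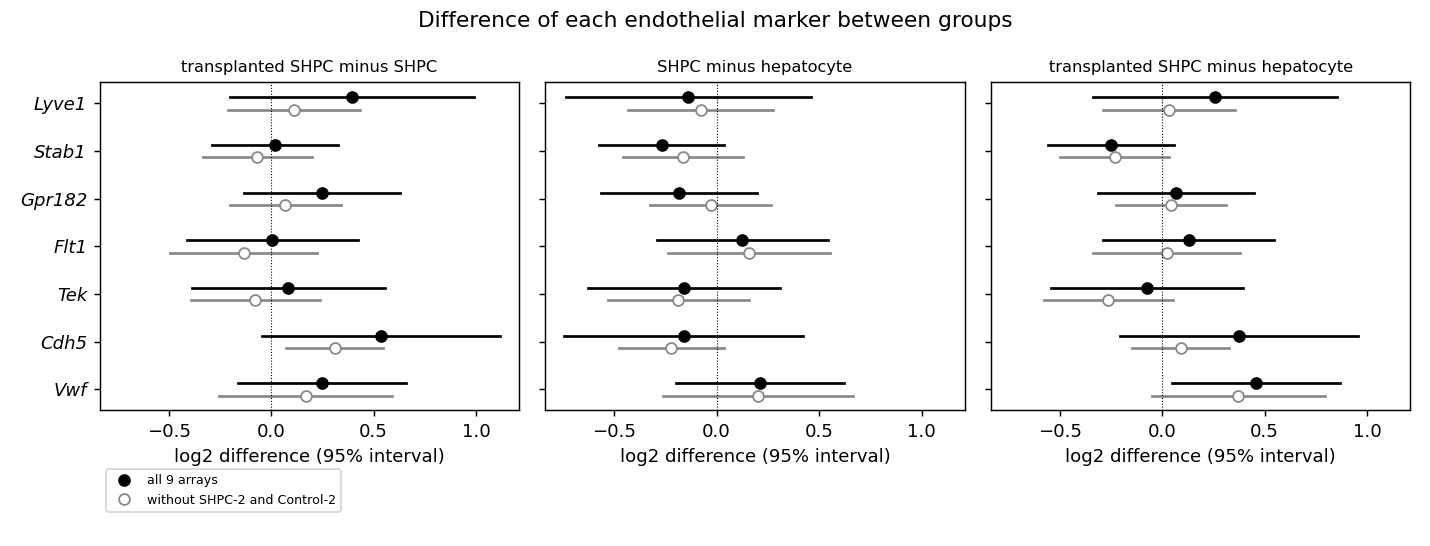
Log2 difference (x axis) of each marker (y axis) in the 3 comparisons, with limma's 95% interval, from all 9 arrays (filled) and without SHPC-2 and Control-2 (open). Each interval from all arrays spans 0 except that of Vwf in transplanted SHPCs against hepatocytes, and without both arrays each spans 0 except that of Cdh5 between the SHPC groups.

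SHPC clusters against the hepatocytes beside them, both from livers without transplantation, address how the clusters differ from neighbouring parenchyma. Of the 7 markers 5 had a lower and 2 a higher mean in SHPCs, with a median of −0.16 against −0.01 over all tested genes, of which 48.6% were above 0. The count passing was 0 of 7, with 0.0633% of all tested genes passing, and 0 of 7 had an unadjusted p under 0.05, against 4.12% of all. Groups of arrays did not overlap for 0 of 7, against 5.22% of all. Without SHPC-2 and Control-2 the median was −0.08, again with 5 lower and 2 higher where 49.9% of all were higher, and 0 of 7 passed, against 0.304% of all. The direction turned with SHPC-2 left out alone: 5 of 7 were then higher, with a median of 0.07, Lyve1 at 0.14, Cdh5 at 0.07 and Tek at 0.00334. With Control-2 left out alone 2 of 7 were higher, with a median of −0.25.

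Kupffer cell markers were below 0 in 11 of 12 in this comparison, with a median of −0.31 (−0.21 without both arrays, 0.00415 without SHPC-2 alone and −0.47 without Control-2 alone). Their summed linear intensity was 1649 to 2716 on SHPC arrays and 2291 to 3076 on hepatocyte arrays, and their part in the endothelial values was not tested.

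Stab1 had the smallest p here, lower by −0.27 ± 0.14 (log2, SE, limma adjusted p = 1), and by −0.16 without both arrays. Its 95% interval ran from −0.57 to 0.04. Vwf and Flt1 were the markers with a higher mean, by 0.21 ± 0.18 and 0.12 ± 0.19 (SE). Gpr182, Cdh5, Tek and Lyve1 differed by −0.18 ± 0.17, −0.16 ± 0.26, −0.16 ± 0.21 and −0.14 ± 0.27. Without both arrays these 4 stood at −0.03, −0.22, −0.19 and −0.08, and Vwf and Flt1 at 0.20 and 0.16. The widest 95% interval was that of Lyve1, at −0.73 to 0.46 on all arrays.

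SHPC and hepatocyte arrays of the same replicate number deviated together from their group means. SHPC-3 did so more with Control-1 (correlation over genes 0.48) than with Control-3 (0.341). The correlation was highest, at 0.705, for SHPC-2 with Control-2, the arrays that stood apart. The labels give no pairs, and the part of those arrays in the other correlations was not tested. Differences within the numbered pairs are given too, though the pairing was chosen from these same values. For Lyve1 they were −0.22, −0.25 and 0.06 (SHPC minus hepatocyte, replicates 1, 2 and 3), although both arrays of pair 2 were low. Cdh5 gave −0.21, −0.04 and −0.23, and Stab1 gave −0.33, −0.48 and 0, its value being identical on both arrays of pair 3. Flt1 was higher in SHPCs in 3 of 3 pairs, at 0.09, 0.06 and 0.22, while Gpr182, at −0.04, −0.49 and −0.02, was higher in 0 of 3. With these numbers as a replicate block over the SHPC and hepatocyte arrays alone 0 of 7 markers passed, and the smallest limma adjusted p was 0.43, for Stab1.

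Transplanted SHPCs against hepatocytes set the clusters against parenchyma of livers that were not transplanted, so cell type and treatment cannot be told apart. This comparison shares its arrays with the others. Here 5 of 7 markers had a higher mean in transplanted SHPCs (4 after quantile normalization or cyclic loess, 6 after median centring), with a median of 0.13 against 0.00 over all tested genes, of which 49.8% were above 0. Again 0 of 7 passed, against 1.18% of all tested genes, and 0 of 7 had arrays without overlap, against 19.2% of all. Without both arrays the median was 0.03 with again 5 of 7 higher, where 49.7% of all were, and 0 of 7 passed, against 3.64%.

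Vwf was the 1 marker with an unadjusted p under 0.05, which 10.4% of all tested genes had. It averaged 5.73 ± 0.28 in transplanted SHPCs and 5.28 ± 0.25 in hepatocytes (log2 intensity, SD, n = 3 each), a difference of 0.46 ± 0.18 (SE, limma adjusted p = 0.418) with overlapping arrays. Its 95% interval ran from 0.05 to 0.87. Leaving out Thy1-2, the highest array, gave 0.31, and leaving out SHPC-2 and Control-2 gave 0.37. With array quality weights it passed at 0.56 (limma adjusted p = 0.0181), a setting under which 2685 of all tested genes passed. Markers of platelets, which also carry von Willebrand factor, were above 0 in 1 of 5 (2 of 5 under the other scalings), with summed intensities of 133.5 to 147 in transplanted SHPCs and 146.5 to 153.7 in hepatocytes. The part of platelets in the Vwf values was not tested.
Cdh5, Lyve1, Flt1 and Gpr182 differed by 0.38 ± 0.26, 0.26 ± 0.27, 0.13 ± 0.19 and 0.07 ± 0.17 (SE). Tek and Stab1 had lower means in transplanted SHPCs, by −0.07 ± 0.21 and −0.25 ± 0.14. Without both arrays Cdh5, Lyve1, Flt1 and Gpr182 stood at 0.09, 0.03, 0.02 and 0.04, and Tek and Stab1 at −0.26 and −0.23. Renewed quantile normalization turned Gpr182 to −0.08, cyclic loess turned it to −0.10, and median centring turned Tek to 0.02. Median centring also moved the median of all tested genes to 0.09 in this comparison.

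Other genes of sinusoidal endothelium were read from a separate list of 14, of which 12 were measured. Rspo3 stood out among them. It encodes R-spondin 3, a secreted enhancer of Wnt signalling that in mouse liver comes from cells near the central vein, endothelium included, and maintains pericentral gene expression. Its values were 4.51, 4.72 and 4.71 on the transplanted SHPC arrays, 4.80, 4.81 and 5.04 on the SHPC arrays, and 5.88, 5.78 and 6.27 on the hepatocyte arrays (log2 intensity). Both SHPC groups lay wholly below the hepatocytes, and SHPC-2 and Control-2 were not apart from the other arrays of their groups. The Rspo3 values in both SHPC groups, 4.51 to 5.04, were dim. They lay not far above the medians of all probe sets on those arrays (4.30 to 4.59).

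Rspo3 fell by 1.33 ± 0.16 (log2, SE) in transplanted SHPCs against hepatocytes, a 2.51-fold lower level, and passed (limma adjusted p = 0.00585). It was the 1 gene of the 12 to pass there, where 1.18% of all tested genes passed. Across 18 other settings its adjusted p in that comparison lay between 1.81e-05 and 0.048. In SHPCs against hepatocytes it differed by −1.09 ± 0.16, 2.13-fold lower, and missed the threshold (limma adjusted p = 0.0537). It passed there under 7 of 19 alternatives and missed under 12, with a limma adjusted p of 0.000966 to 0.465. Those passing included the same replicate block (limma adjusted p = 0.00295), in which the within-pair differences were −1.08, −0.97 and −1.23, and the fit without SHPC-2 and Control-2 (0.0426). Those missing included the compared groups alone (0.465) and median centring (0.255). Between the SHPC groups Rspo3 differed by −0.24 ± 0.16, with all transplanted arrays below the SHPC arrays (limma adjusted p = 0.719). Of all tested genes 15.8% had no overlap of arrays between those groups.

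Of the 12, 0 passed between the SHPC groups, where 10 were above 0, against 53% of all tested genes. The median was 0.16, or 0.05 without both arrays. In SHPCs against hepatocytes 0 passed, and 12 of 12 were below 0, with a median of −0.20, where 48.6% of all tested genes were above 0. Bmp2 counted as below at only −0.00074. All 12 were also below 0 under each of the 3 other scalings, which keep SHPC-2 and Control-2. Without both arrays 9 were below and 3 above 0, with a median of −0.10, and without SHPC-2 alone 8 were below and 4 above, with a median of −0.05. The Kupffer cell markers given above, at a median of −0.31, lay on the same side of 0. Wnt2, a Wnt ligand that sinusoidal cells make in mouse liver, differed by −0.35 ± 0.16 (SE, limma adjusted p = 1) in SHPCs and by −0.36 ± 0.16 in transplanted SHPCs, each against hepatocytes (limma adjusted p = 0.46). Without both arrays these were −0.24 and −0.22. Wnt2 was dim: its values in both SHPC groups, 4.16 to 4.36, lay close to the medians of all probe sets on those arrays (4.30 to 4.59). Gata4, a transcription factor needed for the sinusoidal identity of these cells in mouse, was at 0.47 ± 0.25 in transplanted SHPCs against SHPCs, and at 0.16 without both arrays. Ehd3, an endocytic trafficking gene, was at 0.85 ± 0.47 and 0.39, and Oit3 at 0.53 ± 0.30 and 0.14, in the same comparison.

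**Figure D3:**
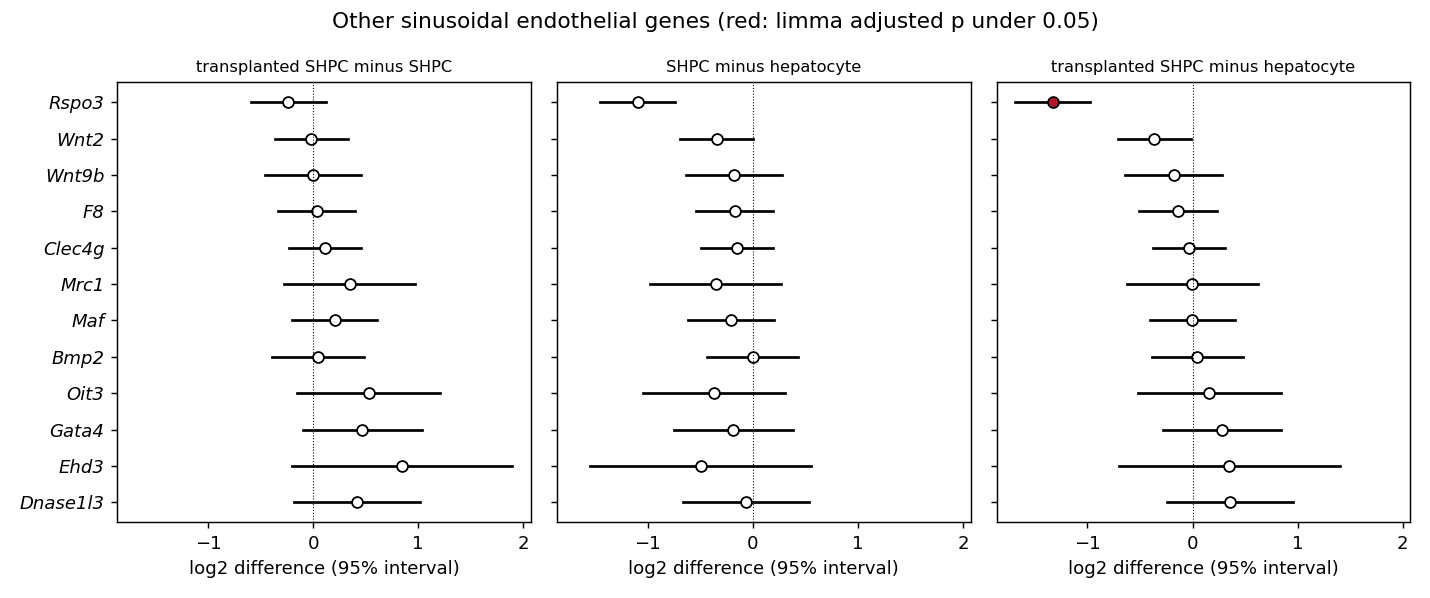
Log2 difference (x axis) with limma's 95% interval for the 12 measured genes of the separate sinusoidal list (y axis) in the 3 comparisons, with genes past a limma adjusted p of 0.05 in red. Rspo3, at −1.33 in transplanted SHPCs against hepatocytes, is the 1 red point.

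General endothelial genes were close to level. Of 20 measured in a list of 23, 0 passed in any of the 3 comparisons, with medians of 0.11, 0.03 and 0.03 for transplanted SHPCs against SHPCs, SHPCs against hepatocytes and transplanted SHPCs against hepatocytes. Without both arrays these were −0.01, 0.07 and 0.06. After median centring they were 0.21, 0.02 and 0.12, where the medians of all tested genes were 0.12, −0.02 and 0.09. Icam2, an adhesion molecule of endothelium and leukocytes, was lower in SHPCs than in hepatocytes on every array, by −0.42 ± 0.15 (log2, SE, limma adjusted p = 0.886), and by −0.59 without both arrays. Of all tested genes 5.22% had no overlap of arrays in that comparison. S1pr1, the receptor for sphingosine-1-phosphate, was at 0.40 ± 0.19 in transplanted SHPCs against hepatocytes (limma adjusted p = 0.497). Its arrays did not overlap, as for 19.2% of all tested genes. In the same comparison Ramp2, a part of the adrenomedullin receptor, was at 0.36 ± 0.19 (limma adjusted p = 0.562).

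Genes of arteries, veins and capillarised endothelium also gave 0 passing of 10 measured in each comparison, with medians of 0.05, 0.00 and 0.10 in the same order. The first of these was 0.15 to 0.16 under the 3 other scalings, with 8 or 9 of 10 above 0 in place of 6. Under those scalings the median of all tested genes was 0.02 to 0.12. Efnb2, the arterial ligand ephrin B2, was at 0.55 ± 0.23 in transplanted SHPCs against SHPCs (limma adjusted p = 0.658) and at 0.55 ± 0.23 against hepatocytes (0.439), with no overlap of arrays in either. Both values were lower without SHPC-2 and Control-2, at 0.31 and 0.40. Of all tested genes 15.8% and 19.2% had no overlap of arrays in these comparisons. Gja5, which encodes the arterial gap junction protein connexin 40, was at 0.34 ± 0.13 in SHPCs and at 0.33 ± 0.13 in transplanted SHPCs against the same hepatocyte arrays (limma adjusted p = 1 and 0.415). Its hepatocyte values, 4.06 to 4.19, lay below the medians of all probe sets on those arrays.

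Among 11 measured VEGF and angiopoietin ligands and further receptors, 0 passed in each comparison, and the medians were 0.11, −0.07 and −0.01. The last was above 0 under each other scaling (0.03 to 0.08), as was the median of all tested genes (0.02 to 0.09). The VEGF co-receptor Nrp1 was at 0.32 ± 0.16 in transplanted SHPCs against SHPCs (log2, SE, limma adjusted p = 0.697) and at 0.18 without both arrays. Its relative Nrp2 was at −0.35 ± 0.15 in SHPCs and at −0.33 ± 0.15 in transplanted SHPCs, each against hepatocytes (limma adjusted p = 1 and 0.511). The 15 Notch and BMP pathway genes of endothelium gave 0 passing in each comparison and medians of 0.01, 0.05 and 0.02. After median centring these were 0.12, 0.04 and 0.11, where the medians of all tested genes were 0.12, −0.02 and 0.09.

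**Figure D4:**
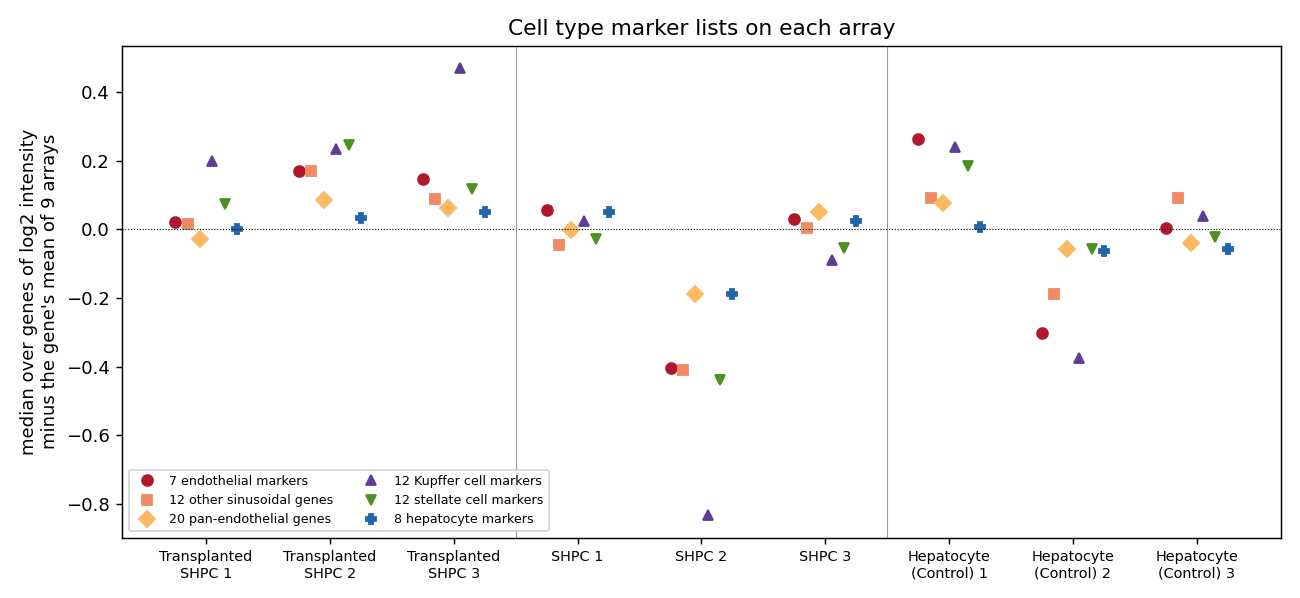
Median over the genes of a list of log2 intensity minus the gene's mean over the 9 arrays (y axis) on each array (x axis), for 3 endothelial lists and for Kupffer, stellate and hepatocyte markers. SHPC 2 holds the lowest value of every list, at −0.40 for the 7 endothelial markers and −0.83 for the Kupffer cell markers, against −0.19 for hepatocyte markers.

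Kupffer, stellate and hepatocyte marker lists also had their lowest median deviation on SHPC-2. By the same measure T and natural killer cell, platelet and cholangiocyte lists were above their mean there, at 0.20, 0.18 and 0.11. The summed linear intensity of the T and natural killer cell markers was nevertheless at its lowest on SHPC-2, at 182.1. Cd4, the brightest gene of that list, was lowest there too. The platelet sum was at its highest there, at 160.2, and the cholangiocyte sum, at 139.1, lay within the range of the other arrays. On SHPC-2 the median deviation from the mean over the 9 arrays was −0.40 for the 7 markers, −0.41 for the other sinusoidal genes, −0.83 for Kupffer and −0.44 for stellate cell markers, and −0.19 for hepatocyte markers. Control-2 stood at −0.30 for the 7 markers, −0.38 for Kupffer, −0.06 for stellate and −0.06 for hepatocyte markers. Control-1, at 0.26, had the highest value of the 7 markers. Of the Kupffer cell list Marco, a scavenger receptor gene, passed in transplanted SHPCs against hepatocytes at 0.80 ± 0.16 (log2, SE, limma adjusted p = 0.0456), with a call that ended under 13 of the 18 alternatives. Marco was the 1 of 12 in that list to pass there, against 1.18% of all tested genes.

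The genes whose profile was most like the mean profile of the 7 markers were sought over all tested genes. The measure was the mean absolute difference between log2 values, each gene centred on its own mean. Over 9 arrays these were Las1l (0.0361), Nab1 (0.0365), Cnot2 (0.0399), Dcaf17 (0.0414) and Wnk1 (0.0425), against a median of 0.23 over all other tested genes. The markers themselves lay between 0.0740 for Gpr182 and 0.178 for Vwf on that measure. Over the 7 arrays without SHPC-2 and Control-2 the nearest were Cnot2 (0.0182), Tmem185a (0.0240), Rab33b (0.0265), Ccm2 (0.0275) and Ccdc47 (0.0286), against a median of 0.139. Only Cnot2 was in both sets of 5.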

How the data were processed

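Microdissected liver regions were measured on 9 arrays, 3 per group. For 36685 probe sets the authors deposited a linear intensity, made with RMA per the submitters' processing notes; the sources used here give neither its settings nor a genome build. All values were log2 transformed here. The annotation gives 1 symbol for 18511 probe sets and several for 575, which were not named, and 17599 are unnamed here; 18394 were matched by Entrez ID to RefSeq (GRCr8). The probe set with the highest mean stood for a gene, and 2373 dim genes were left out. Groups were compared with limma 3.58.1 (R 4.3.3), in 1 fit of the 3 group means over the 9 arrays, leaving 6 residual degrees of freedom. Moderated p-values (eBayes) were adjusted by Benjamini-Hochberg over 15793 genes at 0.05; the script was tested on simulated data. Differences carry limma's SE.

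The markers and gene lists were chosen with earlier results of these data known; no p was adjusted over a list. All markers are named, with at most 3 genes of smallest p per other list. Same-numbered SHPC and hepatocyte arrays deviated together from their group means (correlations over genes 0.526, 0.705 and 0.341). Their numbers were therefore also tried as pairs, which the labels do not give. The highest value is that of SHPC-2 with Control-2, the arrays that stood apart, and their part in the other correlations was not tested. Unlike numbers also correlated, SHPC-3 with Control-1 at 0.48 and SHPC-1 with Control-3 at 0.237, so pairs 1 and 3 are not told apart clearly. Same-numbered transplanted arrays did not deviate together with SHPC arrays, at −0.0936 to 0.00234. Alternatives were other normalizations, no dim filter, probe set means, compared groups alone, array weights, a replicate block and arrays left out.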

Additional observations from a re-analysis of the deposited data

How the results depend on the processing

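Under 18 other settings, and in a replicate block over the SHPC and hepatocyte arrays alone that was added after seeing the data, 0 of 7 markers passed in transplanted SHPCs against SHPCs and in SHPCs against hepatocytes. In transplanted SHPCs against hepatocytes 1 passed (Vwf) with array quality weights and 0 under the others. The median difference of the 7 markers ranged over all settings from 0.05 to 0.35, from −0.29 to 0.07 and from 0.03 to 0.29 in these comparisons. The range for SHPCs against hepatocytes thus crossed 0. For scale, the pooled SD of the markers' median deviation on single arrays was 0.227, which is not the spread of a difference between groups. Of 21 marker differences, 10 changed sign at least once; the cause was not tested.

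In transplanted SHPCs against SHPCs, cyclic loess turned Flt1 to −0.0199. Array quality weights turned Stab1, Tek and Flt1 to −0.0562, −0.086 and −0.0979, and leaving out both SHPC-2 and Control-2 turned them to −0.0679, −0.0765 and −0.134. Leaving out 1 array at a time gave −0.0679 to 0.0693, −0.0765 to 0.231 and −0.134 to 0.15 for the same genes. In SHPCs against hepatocytes the weights turned Lyve1 to 0.0416 and Gpr182 to 0.00441. Leaving out 1 array gave −0.359 to 0.143 for Lyve1, −0.447 to 0.0654 for Cdh5, −0.348 to 0.0143 for Tek and −0.0202 to 0.284 for Flt1. In transplanted SHPCs against hepatocytes quantile normalization and cyclic loess turned Gpr182 to −0.079 and −0.0955, and median centring turned Tek to 0.0197; leaving out 1 array gave Tek −0.263 to 0.0992.

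Counts over all genes moved widely: 1 passing gene between the SHPC groups became 0 to 259, 10 in SHPCs against hepatocytes became 0 to 375 (147 with the replicate block over these arrays), and 186 in transplanted SHPCs against hepatocytes became 31 to 2685. Median centring added 0.103 to the median of all genes between the SHPC groups and 0.0928 in transplanted SHPCs against hepatocytes. Background correction and scan batches could not be varied from the deposited values. The replicate block changed no call on a marker.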
